A study of Mus musculus with 12 samples.

Results

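A set of 9 genes that damp MAP kinase signalling was followed across macrophages with and without the ion channel Piezo1, each with and without the fungus Candida albicans. They are 7 dual specificity phosphatases (Dusp1, Dusp2, Dusp3, Dusp4, Dusp5, Dusp6 and Dusp16), the Sprouty gene Spry2 and the Sprouty-related gene Spred1. They were chosen by name as inhibitors of the ERK, p38 and JNK kinases, with earlier results of these data known. Counts and medians of the 9 beside those of all genes are therefore a description. All 9 were found among the 25230 genes of the deposited table. All 9 also passed the filter on low values, at least 1 TPM (transcript abundance scaled to gene length and library size) in at least 3 libraries, which left 11283 genes for testing. Polyadenylated RNA was sequenced from bone marrow derived macrophages, grown from mouse marrow for 8 days with 50 ng/ml of the growth factor M-CSF. The 4 groups of 3 libraries were Piezo1 knockout with C. albicans, Piezo1 knockout with PBS, wild type with C. albicans and wild type with PBS. The series asks whether Piezo1, a mechanically gated cation channel, takes part in the response of macrophages to the fungus. DMSO stands in the titles of the knockout PBS libraries, which were placed with PBS by their treatment label. The sources used here give neither the deleted part of Piezo1, nor the cell type of the deletion, the fungal dose or the length of exposure. Nothing in the labels ties the 3 libraries of a group to separate animals or cultures, so p-values measure the spread between these libraries, which may be technical.

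MAP kinases are switched on when a MAP kinase kinase phosphorylates a threonine and a tyrosine in their activation loop. MAP kinase phosphatases remove both phosphates, and many of their genes are themselves induced by ERK, p38 or JNK activity, which closes a negative feedback loop. Sprouty and Spred proteins act further upstream, between receptors and RAS or RAF. In mouse macrophages, Dusp1 is known for limiting p38 and JNK activity and cytokine production after microbial stimuli.

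Dusp1, Dusp4, Dusp5 and Spred1 are the 4 genes whose response to C. albicans was smaller in the knockout, as given further on. The 250 bases before the annotated start of 3 of them are shown here (RefSeq, GRCm38.p6, 5′ to 3′ on the strand of the gene). These 3 were picked for that smaller response, while other members, such as Dusp2, moved with them too. Capitals mark matches to the motifs searched. The windows lie at chr17:26508473-26508722 (minus strand) for Dusp1, chr19:53528895-53529144 (plus strand) for Dusp5 and chr2:117120821-117121070 (plus strand) for Spred1.
Dusp1: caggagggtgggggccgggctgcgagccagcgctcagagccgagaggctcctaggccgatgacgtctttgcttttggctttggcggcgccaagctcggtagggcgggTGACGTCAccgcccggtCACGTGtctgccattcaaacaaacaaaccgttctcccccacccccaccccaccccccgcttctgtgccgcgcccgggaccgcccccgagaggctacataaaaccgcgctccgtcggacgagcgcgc
Dusp5: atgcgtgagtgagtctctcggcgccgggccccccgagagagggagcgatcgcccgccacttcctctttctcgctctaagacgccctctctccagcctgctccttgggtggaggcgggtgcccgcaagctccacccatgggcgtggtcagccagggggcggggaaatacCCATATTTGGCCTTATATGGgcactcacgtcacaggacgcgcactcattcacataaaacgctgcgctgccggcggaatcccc
Spred1: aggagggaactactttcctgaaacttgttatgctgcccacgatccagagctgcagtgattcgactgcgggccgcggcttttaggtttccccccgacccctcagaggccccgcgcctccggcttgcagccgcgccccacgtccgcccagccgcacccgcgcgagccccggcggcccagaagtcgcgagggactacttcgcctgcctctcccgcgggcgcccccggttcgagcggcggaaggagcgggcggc
Of the 9 genes, 8 had a window in the table, and Dusp4 was not among them. Dusp1 held the cAMP response element TGACGTCA at bases -143 to -136 from the start, a word found in 1.55% of 32851 windows of that length. It also held the E-box CACGTG at -126 to -121, as did Dusp2 at -109 to -104, against 6.02% of all windows. Dusp5 held 2 adjacent serum response elements (CArG boxes) at -82 to -73 and -72 to -63, a motif found in 1.47% of windows. No window of the 8 genes held the AP-1 word TGANTCA (6.75% of all windows), the NF-kB motif (3.90%) or the TATA box word TATAAA (12.4%), searched on both strands. No motif searched was found in the window of Spred1.

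Reads assigned to genes numbered 16400119 to 25741091 per library. Piezo1 averaged 64.9 ± 0.756 TPM in knockout macrophages with C. albicans and 65.4 ± 2.72 TPM with PBS, against 137 ± 8.68 and 135 ± 4.69 TPM in wild type (SD, n = 3), so its transcript was reduced and not absent in the libraries labelled knockout. All 7 macrophage markers reached 1 TPM, and their summed level was 15146 to 15287 TPM in the knockout with C. albicans and 14775 to 15035 TPM with PBS, against 21073 to 22213 and 25117 to 25704 TPM in wild type. Most of that sum was Lyz2, the lysozyme gene, with 9403 to 9482 TPM in the knockout with C. albicans and 8948 to 9269 TPM with PBS, against 15462 to 16682 and 19416 to 19960 TPM in wild type. The other 6 markers summed to 5735 to 5868 TPM in the knockout with C. albicans and 5766 to 5828 TPM with PBS, against 5427 to 5611 and 5701 to 5744 TPM in wild type. Among neutrophil markers Ly6g and S100a9 were at 0 in every library, and the sum of the 7 was 3.06 to 5.26 TPM in the knockout with C. albicans and 4.19 to 5.63 TPM with PBS, against 6.34 to 8.14 and 2.21 to 2.75 TPM in wild type. Summed markers of B cells, T cells, dendritic, erythroid, mast and stromal cells reached at most 2.68 TPM in any library. The part of these marker levels in the results below was not tested. In bulk RNA, fewer cells of a type and less RNA per cell cannot be told apart. Of the wild-type libraries with C. albicans, replicate 1 differed from the rest of its group: a chi-square of its counts per degree of freedom was 16.2 and 15.3 against the other 2 libraries, while every other pair within a group gave 1.49 to 4.60. For the 9 genes, results whose call it changed are given with and without it.

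With C. albicans, 6 of the 9 inhibitor genes rose in the knockout and 7 rose in wild type, and none fell. Among all genes tested, 7.08% changed in the knockout (3.94% rose and 3.14% fell) and 44.4% in wild type (16.1% rose and 28.3% fell). The 354 genes that fell in the knockout numbered 824 without wild-type C. albicans replicate 1, and 98 to 179 without knockout PBS replicate 1 or 3 or any 1 knockout C. albicans library. Dusp4, Dusp1, Spred1, Dusp5, Dusp2 and Dusp6 rose in both genotypes, Dusp16 passed the test in wild type, and Dusp3 and Spry2 passed it in neither. The median log2 fold change of the 9 was 0.81 in the knockout and 1.36 in wild type, against -0.04 and -0.07 over all genes tested. Log2 changes are differences of log2(TPM + 1), which understate the change of low genes, while folds and percentages are ratios of mean TPM. A call is an adjusted p under 0.05 by limma over all genes tested. Scaling by median ratios left the counts of these genes at 6 and 7. The split over all genes moved to 611 higher and 172 lower in the knockout, against 445 and 354 without that scaling. In wild type it moved to 2576 and 2066, against 1814 and 3192.

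**Figure D1:**
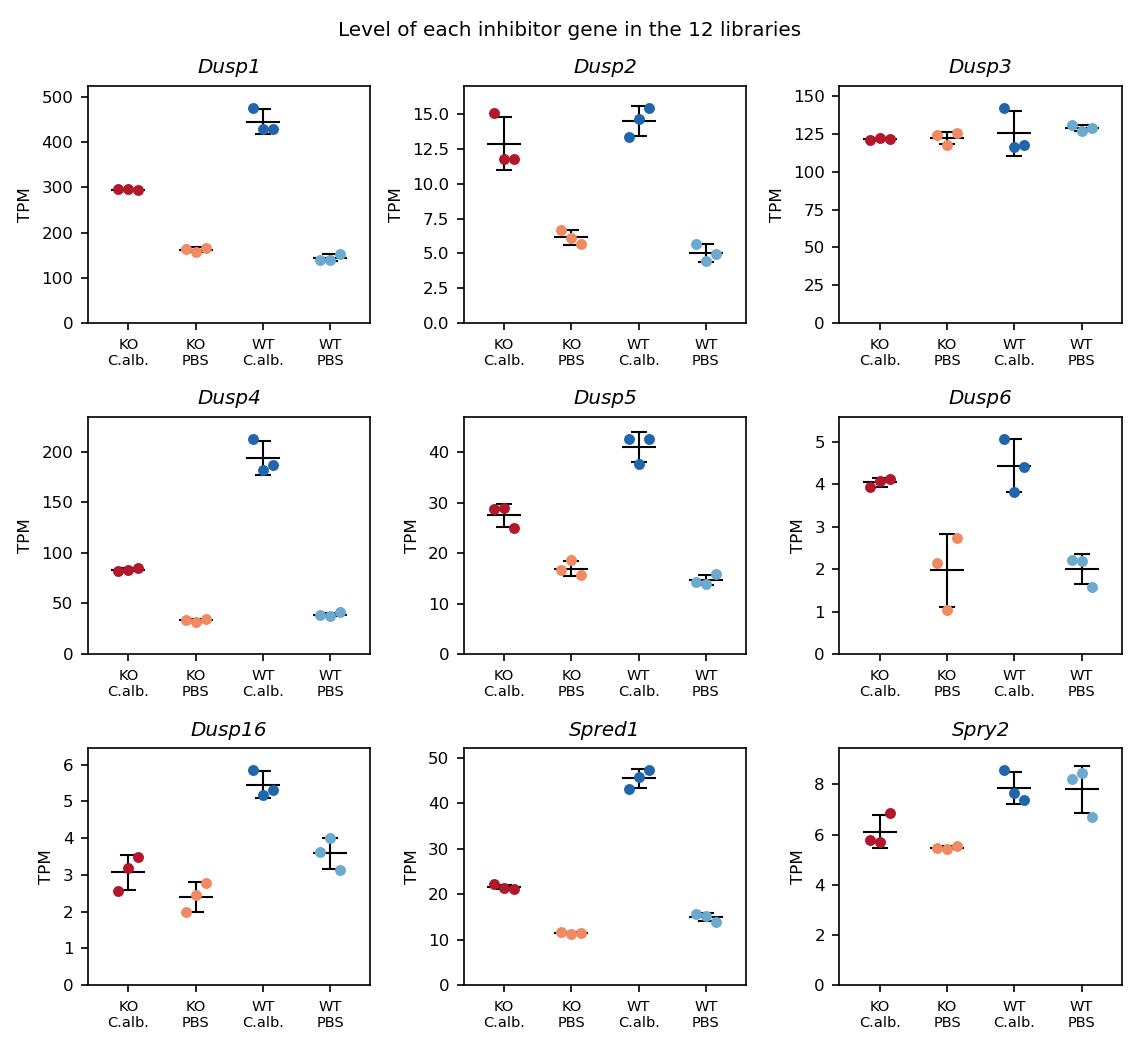
Level of each of the 9 genes in TPM (linear axes starting at 0) in the 12 libraries, with Piezo1 knockout groups left of wild-type groups and C. albicans left of PBS. Points are libraries and the bars mark the group mean with its SD (n = 3). Every gene but Dusp3 has its highest mean in wild type with C. albicans. Spry2 averages 7.87 TPM there and 7.80 TPM in wild type with PBS. Dusp3 lies between 116 and 143 TPM in every library.

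Dusp1, a nuclear phosphatase of p38, JNK and ERK, was the most abundant of the 9 genes in every group. Its level was 296, 295 and 294 TPM in the 3 knockout libraries with C. albicans and 163, 156 and 167 TPM in those with PBS. In wild type it was 476, 429.6 and 429.6 TPM with C. albicans, against 140.0, 139.9 and 153 TPM with PBS. C. albicans libraries lay above PBS libraries in both genotypes with no overlap, the wild-type ones highest. The rise was 1.82-fold in the knockout (log2 0.86, SE 0.05, adjusted p = 6.29e-08) and 3.09-fold in wild type (log2 1.62, SE 0.05, adjusted p = 2.99e-11). Dusp1 (gene ID 19252) lies at chr17:26505591-26508472 on the minus strand of GRCm38, and some of its exon bases are shared with exons of Ergic1 on the other strand. Ergic1 was at 62.2 to 79.4 TPM, and with the strand setting of the counting not given, reads of the shared bases cannot be told apart.

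Dusp4, a nuclear phosphatase closely related to Dusp1, showed the largest change of the 9. Levels with C. albicans were 82.4, 83.2 and 84.6 TPM in the knockout, where PBS libraries had 33.4, 31.4 and 34.6 TPM. Wild-type libraries had 213, 181 and 186 TPM with C. albicans, against 38.1, 37.8 and 41.2 TPM with PBS. Every knockout library with C. albicans was thus above all PBS libraries and below all wild-type libraries with C. albicans. Its rise was 2.52-fold in the knockout (log2 1.31, SE 0.06, adjusted p = 1.16e-08) and 4.96-fold in wild type (log2 2.28, SE 0.06, adjusted p = 1.47e-11). The gene (ID 319520) lies at chr8:34807610-34819894 on the plus strand, with no exon of another gene over its own.

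Dusp5, a nuclear phosphatase selective for ERK, stood at 28.7, 29.0 and 24.9 TPM in knockout libraries with C. albicans and at 16.6, 18.5 and 15.6 TPM with PBS. Its wild-type levels were 42.7, 37.7 and 42.7 TPM with C. albicans, against 14.3, 13.9 and 15.9 TPM with PBS. C. albicans and PBS libraries did not overlap in either genotype. Dusp5 rose 1.63-fold in the knockout (log2 0.67, SE 0.08, adjusted p = 1.48e-04) and 2.79-fold in wild type (log2 1.42, SE 0.08, adjusted p = 2.66e-08). It lies at chr19:53529145-53541809 on the plus strand (ID 240672) and shares exon bases with an antisense gene.

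Dusp2, an inducible nuclear phosphatase of ERK and p38 found mainly in blood cells, was at 15.1, 11.8 and 11.8 TPM in the knockout with C. albicans and at 6.68, 6.10 and 5.65 TPM with PBS. In wild type it was at 13.3, 14.7 and 15.5 TPM with C. albicans, against 5.71, 4.45 and 4.97 TPM with PBS. The C. albicans libraries of the 2 genotypes overlapped, and all of them lay above all PBS libraries. The increase was 2.10-fold in the knockout (log2 0.95, SE 0.11, adjusted p = 7.46e-05) and 2.87-fold in wild type (log2 1.36, SE 0.11, adjusted p = 6.32e-07). Between 53 and 237 reads per library lay behind these values. The gene (ID 13537) lies at chr2:127336159-127338377 on the plus strand.

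Dusp6, the cytoplasmic phosphatase selective for ERK, was among the lowest of the 9. It had 3.94, 4.08 and 4.13 TPM in the knockout with C. albicans and 2.15, 1.03 and 2.74 TPM with PBS. Wild type had 5.08, 3.83 and 4.41 TPM with C. albicans, against 2.22, 2.19 and 1.59 TPM with PBS. C. albicans libraries again lay above PBS libraries of the same genotype, and the genotypes overlapped within each treatment. Its rise was 2.05-fold in the knockout (log2 0.81, SE 0.19, adjusted p = 0.0203) and 2.22-fold in wild type (log2 0.86, SE 0.19, adjusted p = 0.00246). Only 27 to 125 reads per library supported it, and the knockout call was lost without knockout C. albicans replicate 1, 2 or 3 (adjusted p = 0.0601, 0.0611 and 0.0709) and with no filter on low values (0.0544). Dusp6 (ID 67603) lies at chr10:99263231-99267489 on the plus strand.

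Dusp16, a phosphatase that prefers JNK and p38, was at 2.56, 3.17 and 3.50 TPM in the knockout with C. albicans and at 1.97, 2.45 and 2.78 TPM with PBS, so that the treatments overlapped. Wild-type levels were 5.87, 5.17 and 5.31 TPM with C. albicans, against 3.63, 3.99 and 3.13 TPM with PBS, without overlap. The change was log2 0.26 in the knockout (SE 0.12, adjusted p = 0.219) and a rise of log2 0.49 in wild type (SE 0.12, adjusted p = 0.00547). With voom on the recovered reads the knockout value was 0.45 and passed (adjusted p = 0.0458). Dusp16 (ID 70686) spans chr6:134715468-134807063 on the minus strand, and its transcripts are longer than those of 93.5% of the genes tested.

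Dusp3, a small atypical phosphatase of ERK and JNK that is usually expressed without stimulation, did not pass in any comparison. It had 121, 122 and 122 TPM in the knockout with C. albicans and 124, 118 and 126 TPM with PBS. Wild type had 143, 116 and 118 TPM with C. albicans, against 131, 127 and 129 TPM with PBS. The highest value, 143 TPM, belonged to wild-type C. albicans replicate 1, the library that stood apart. The change with C. albicans was log2 -0.01 in the knockout (adjusted p = 0.962) and -0.05 in wild type (adjusted p = 0.562). Without that library Dusp3 fell by 0.14 in wild type and passed (adjusted p = 0.00392). Dusp3 (ID 72349) lies at chr11:101971141-101987013 on the minus strand and shares exon bases with an antisense gene.

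Spred1, a membrane protein that brings neurofibromin to RAS, also rose in both genotypes. Its level was 22.2, 21.5 and 21.1 TPM in the knockout with C. albicans and 11.7, 11.3 and 11.5 TPM with PBS. It was 43.2, 45.9 and 47.5 TPM in wild type with C. albicans, against 15.6, 15.3 and 13.9 TPM with PBS. The 4 groups did not overlap, the knockout being lower under both treatments. Spred1 rose 1.88-fold in the knockout (log2 0.86, SE 0.05, adjusted p = 3.32e-07) and 3.05-fold in wild type (log2 1.55, SE 0.05, adjusted p = 2.45e-10). It lies at chr2:117121071-117182279 on the plus strand (ID 114715).

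Spry2, an inhibitor of receptor tyrosine kinase signalling to RAS and ERK, had 5.77, 5.73 and 6.88 TPM in the knockout with C. albicans and 5.46, 5.44 and 5.54 TPM with PBS. Wild type had 8.60, 7.65 and 7.38 TPM with C. albicans, against 8.22, 8.46 and 6.72 TPM with PBS. Its change with C. albicans was 0.13 in the knockout (SE 0.09, adjusted p = 0.435) and 0.02 in wild type (SE 0.09, adjusted p = 0.907), while knockout libraries lay below wild-type ones under both treatments. Between 86 and 158 reads per library supported these values. Spry2 (ID 24064) lies at chr14:105891947-105896819 on the minus strand.

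**Figure D2:**
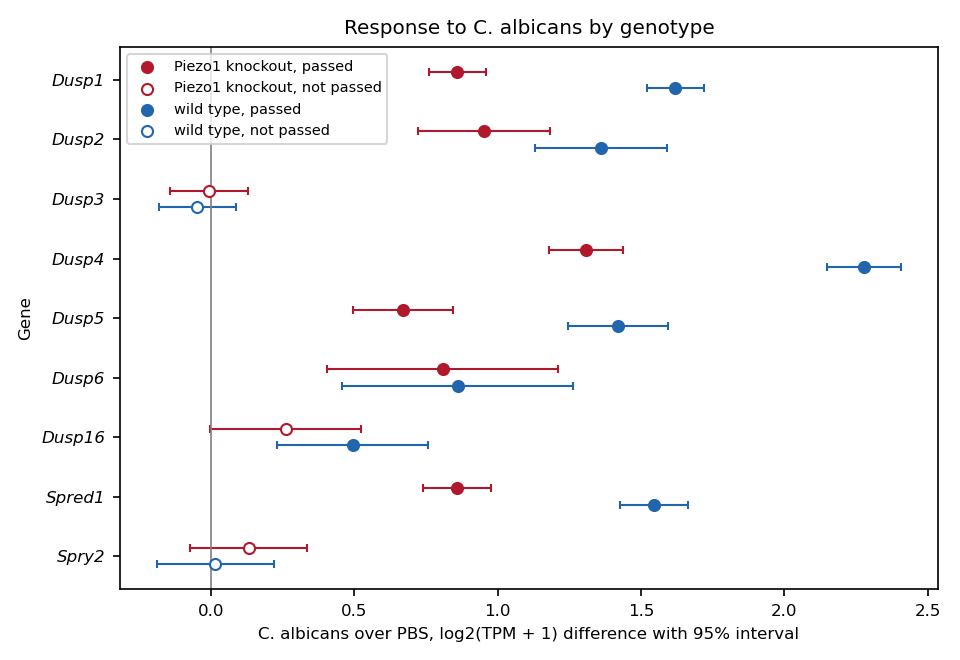
Change of each gene with C. albicans over PBS, on the log2(TPM + 1) scale with its 95% interval, in Piezo1 knockout and wild-type macrophages. Filled points passed the test and open points did not. The knockout points of Dusp1, Dusp4, Dusp5 and Spred1 lie between 0.67 and 1.31 and their wild-type points between 1.42 and 2.28.

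Estimates by the authors for wild type with C. albicans over PBS can be set beside these, though on another scale. They are log2 fold changes of normalised reads, not differences of log2(TPM + 1), and their comparison was identified from the values. In the authors' deposited table the log2 fold change was 2.39 for Dusp4, 1.71 for Dusp1, 1.69 for Spred1, 1.60 for Dusp2, 1.56 for Dusp5, 1.23 for Dusp6 and 0.69 for Dusp16. Dusp3 and Spry2 had 0.04 and 0.10 in the authors' deposited table, with adjusted p of 0.654 and 0.699.

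The order of the levels, which are per length and can be set against each other, differed between the groups. In the knockout the order at the top was Dusp1, Dusp3 and Dusp4 under both treatments. Dusp4 averaged 83.4 ± 1.12 TPM there with C. albicans, against 33.1 ± 1.62 TPM with PBS, and Dusp3 averaged 122 ± 0.443 TPM, against 123 ± 4.09 TPM (SD, n = 3 each). In wild type Dusp4 stood above Dusp3 with C. albicans and below it with PBS: Dusp4 averaged 194 ± 16.9 TPM, against 39.0 ± 1.89 TPM with PBS, and Dusp3 averaged 126 ± 14.8 TPM, against 129 ± 2.02 TPM. Spred1 and Dusp5 followed in all groups. The libraries of this pair overlapped in wild type with PBS alone (14.9 ± 0.903 TPM for Spred1 and 14.7 ± 1.02 TPM for Dusp5). Dusp5 stood above Spred1 in the knockout, with means of 27.5 and 21.6 TPM with C. albicans and 16.9 and 11.5 TPM with PBS. Spred1 stood above Dusp5 in wild type with C. albicans (45.5 and 41.0 TPM). Dusp2 and Spry2 came next, and Dusp16 and Dusp6 were lowest. The libraries of Dusp16 and Dusp6 overlapped in the knockout with PBS.

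Knockout and wild type were also compared within each treatment, and the test of a difference between the treatments is given further on. With C. albicans, 6 of the 9 genes were lower in the knockout and none higher, and with PBS 4 were lower and 1 higher. Among all genes tested, 39.9% differed with C. albicans (12.4% higher and 27.5% lower in the knockout) and 32.3% with PBS (6.14% higher and 26.1% lower). The median log2 difference of the 9 was -0.56 with C. albicans, against -0.05 over all genes, and -0.08 with PBS, the same as over all genes. Of the macrophage markers, Lyz2 was lower in every knockout library than in every wild-type one under both treatments, while the sum of the other 6 was higher, as given above, and their part in these differences was not tested. With median-ratio scaling the PBS split of the 9 was 3 higher (Dusp1, Dusp2 and Dusp5) and 3 lower (Dusp16, Spred1 and Spry2), and all 6 remained lower with C. albicans. That scaling also moved the split over all genes to 2172 higher and 2455 lower with C. albicans, against 1402 and 3101 without it. With PBS the split moved to 1606 and 1595, against 693 and 2948. The knockout PBS libraries are those whose titles name DMSO, and an effect of that vehicle cannot be told apart from genotype in them.

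With C. albicans the largest knockout difference was that of Dusp4, at 43.1% of the wild-type mean (log2 -1.20, SE 0.06, adjusted p = 4.42e-08). Spred1 was at 47.4% (log2 -1.04, SE 0.05, adjusted p = 6.05e-08), Dusp16 at 56.4% (log2 -0.67, SE 0.12, adjusted p = 8.35e-04), Dusp1 at 66.3% (log2 -0.59, SE 0.05, adjusted p = 1.23e-06) and Dusp5 at 67.1% (log2 -0.56, SE 0.08, adjusted p = 1.42e-04). For these 5 genes the knockout and wild-type libraries did not overlap. The share of all genes tested without overlap was not counted, while 27.5% of them were called lower. Spry2 was at 77.8% (log2 -0.32, SE 0.09, adjusted p = 0.0168), also without overlap, and this call was lost without wild-type C. albicans replicate 1 (adjusted p = 0.0564), knockout C. albicans replicate 1 (0.0631) or knockout C. albicans replicate 2 (0.0638), and with voom (0.0575). The differences of Dusp2 (log2 -0.17, adjusted p = 0.239), Dusp6 (log2 -0.10, adjusted p = 0.702) and Dusp3 (log2 -0.04, adjusted p = 0.680) did not pass.

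With PBS the differences of Dusp4, Spred1, Dusp16, Dusp1, Dusp5 and Dusp6 were smaller in size than with C. albicans. Those of Spry2, Dusp2 and Dusp3 were larger in size with PBS. Spry2 was at 70.3% of the wild-type mean in the knockout (log2 -0.44, SE 0.09, adjusted p = 0.00373) and Spred1 at 76.8% (log2 -0.35, SE 0.05, adjusted p = 4.16e-04). Dusp16 was at 67.0% (log2 -0.43, SE 0.12, adjusted p = 0.0162) and Dusp4 at 84.9% (log2 -0.23, SE 0.06, adjusted p = 0.0105). Dusp1 was the 1 gene that was higher (log2 0.17, SE 0.05, adjusted p = 0.0140), the opposite of its direction with C. albicans. Several of these calls depended on the processing. Dusp4 was no longer called with median-ratio scaling (log2 -0.13, adjusted p = 0.0873) or voom (log2 -0.14, adjusted p = 0.141). Spred1 and Dusp16 were no longer called once the trend with length and GC content was removed (log2 -0.13 and -0.17, adjusted p = 0.0869 and 0.323). Dusp16 was also lost without wild-type PBS replicate 2 or knockout PBS replicate 1 (adjusted p = 0.0684 and 0.0710). Dusp1 was lost without wild-type PBS replicate 1, wild-type PBS replicate 2 or knockout PBS replicate 3 (log2 0.15 in each case, adjusted p = 0.0556, 0.0594 and 0.0567). The Dusp2 and Dusp5 differences were 0.24 (adjusted p = 0.0983) and 0.19 (adjusted p = 0.0908), and both passed with median-ratio scaling (0.33 and 0.28, adjusted p = 0.0405 and 0.0219). Dusp3 (-0.08, adjusted p = 0.381) and Dusp6 (-0.05, adjusted p = 0.873) did not pass.

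**Figure D3:**
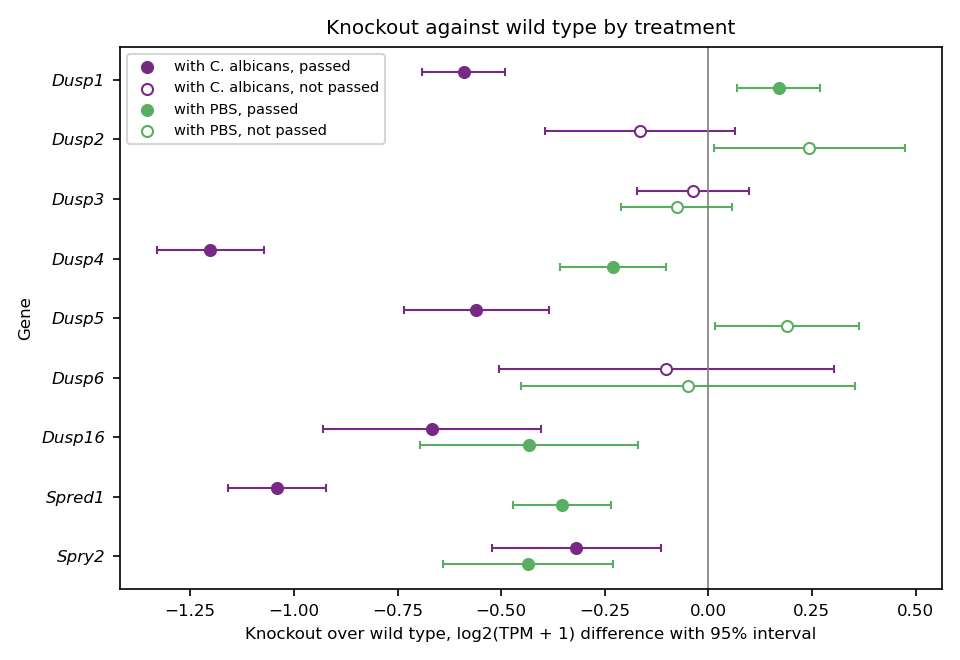
Difference of Piezo1 knockout over wild type for each gene, on the log2(TPM + 1) scale with its 95% interval, with C. albicans and with PBS. Filled points passed the test. With C. albicans the 6 filled points lie between -1.20 and -0.32, and with PBS the 5 filled points lie between -0.44 and 0.17.

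Whether the response itself differed between genotypes was tested as the interaction, the response in the knockout minus the response in wild type. It passed for 4 of the 9 genes, all with a smaller rise in the knockout, while 13.9% of all genes tested passed (7.52% with a positive and 6.33% with a negative interaction). The interaction was -0.97 for Dusp4 (95% interval -1.15 to -0.79, adjusted p = 1.66e-05), -0.76 for Dusp1 (-0.90 to -0.62, adjusted p = 1.64e-05), -0.75 for Dusp5 (SE 0.11, adjusted p = 9.87e-04) and -0.69 for Spred1 (-0.86 to -0.52, adjusted p = 1.22e-04). These 4 passed under each of the 20 alternatives run on them, with a range of -1.07 to -0.90 for Dusp4, -0.84 to -0.71 for Dusp1, -0.85 to -0.68 for Dusp5 and -0.74 to -0.59 for Spred1. The median over the 9 genes was -0.41, against 0.02 over all genes, and with median-ratio scaling the split over all genes was 663 positive and 946 negative, against 849 and 714. Leaving out wild-type C. albicans replicate 1 gave 1472 positive interactions over all genes, and leaving out wild-type C. albicans replicate 2 or knockout PBS replicate 1 gave 547 and 552, while negative ones ranged over 484 to 1059 without any 1 library.

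The interaction did not pass for the other 5 genes. Dusp2 had -0.41 (95% interval -0.73 to -0.08, adjusted p = 0.0903), which passed without knockout C. albicans replicate 1 (-0.52, adjusted p = 0.0326) and with the length and GC trend removed (-0.52, adjusted p = 0.0406). Dusp6 had -0.05 with a wide interval of -0.62 to 0.52 (adjusted p = 0.918), which is the widest of the 9. Dusp16 had -0.23 (-0.61 to 0.14, adjusted p = 0.410) and Spry2 had 0.12 (-0.17 to 0.41, adjusted p = 0.618). Dusp3 had 0.04 (-0.15 to 0.23, adjusted p = 0.809), and 0.13 without wild-type C. albicans replicate 1, where it passed (adjusted p = 0.0485).

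The rest of the MAP kinase pathway was read from the same fit, by lists of other family members, also chosen with earlier results known. Of all genes tested, 3.94% rose and 3.14% fell with C. albicans in the knockout, and 16.1% rose and 28.3% fell in wild type. In the knockout 12.4% were higher and 27.5% lower with C. albicans, and 6.14% and 26.1% with PBS. The interaction was positive for 7.52% and negative for 6.33%. Some list counts lie near these shares, such as 3 of 12 atypical phosphatases lower in the knockout with PBS. Of the other MAP kinase phosphatases, 4 of 4 were tested (Dusp7, Dusp8, Dusp9 and Dusp10) and 1 rose with C. albicans in each genotype. This was Dusp8, a phosphatase of JNK and p38, with log2 0.58 in the knockout (adjusted p = 0.0136) and 0.63 in wild type (adjusted p = 0.00136). The knockout call of Dusp8 was lost without knockout C. albicans replicate 2 (log2 0.54, adjusted p = 0.0560). Between genotypes none passed with C. albicans, and with PBS Dusp9 was higher (log2 0.36, adjusted p = 0.0459) and Dusp7 lower (log2 -0.22, adjusted p = 0.0445) in the knockout. The Dusp7 call was lost with median-ratio scaling (adjusted p = 0.217), and both were lost with no filter on low values (adjusted p = 0.0961 for Dusp9 and 0.0858 for Dusp7). Of the 12 fits that each left out 1 library, 7 lost the Dusp9 call and 9 the Dusp7 call. None of the 4 passed in the interaction. The list called atypical dual specificity phosphatases here held 16 genes, among them the cofilin phosphatase genes Ssh1, Ssh2 and Ssh3, usually placed in another family. Of these 16 genes 12 were tested. None changed with C. albicans in the knockout, and 1 rose and 5 fell in wild type, Ssh2 and Ssh3 among the 5. Only 3 fell without wild-type PBS replicate 1 or 2 or wild-type C. albicans replicate 3. In the knockout 1 was higher and 3 were lower with C. albicans, and 3 were lower with PBS (median-ratio scaling added 1 higher), among them Ssh2, which dephosphorylates cofilin (-0.34 and -0.62). The Ssh2 difference with C. albicans was lost once the length and GC trend was removed (log2 -0.000796, adjusted p = 0.996), and the 1 higher gene was lost in 8 of the 12 fits that left out 1 library. Spry1, Spry3 and Spry4 stayed below 1 TPM in every library, at 0.755 TPM or less. Spred2, the paralog of Spred1, had 8.85 TPM in the knockout with C. albicans and 8.00 TPM with PBS, against 15.5 and 9.71 TPM in wild type. Its change with C. albicans was 0.13 in the knockout, which did not pass, and 0.62 in wild type, which did, and the interaction was -0.49 (SE 0.12, adjusted p = 0.0148).

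The kinases themselves were counted in the same way. Of 10 MAP kinases 7 were tested, and 1 fell with C. albicans in the knockout and 3 fell in wild type (2 lower and 1 higher with median-ratio scaling). Mapk7, which encodes ERK5, had -0.27 in the knockout and -0.49 in wild type, and no MAP kinase passed in the interaction. The knockout call of Mapk7 was lost without knockout PBS replicate 1 or 3 (adjusted p = 0.0549 and 0.0867) and without knockout C. albicans replicate 1 or 3 (adjusted p = 0.0719 and 0.0527), which left no MAP kinase that fell in the knockout. Knockout against wild type, 1 MAP kinase was higher and 3 lower with C. albicans and 1 was lower with PBS, where the scaling left 1 higher and none lower. With 1 library left out, 1 to 3 were lower with C. albicans (1 without wild-type C. albicans replicate 2) and 0 to 2 with PBS. Of 7 MAP kinase kinases 6 were tested, and none changed with C. albicans in the knockout and 2 rose and 1 fell in wild type, with none in the interaction. The 2 that rose became 0 without wild-type PBS replicate 1 or 2, and 1 without any other single wild-type library. In the knockout 1 of them was lower with each treatment, and median-ratio scaling added 1 higher in each. Of 16 MAP3 kinases, RAF and RAS genes, 1 rose and 2 fell in the knockout, and 4 rose and 8 fell in wild type (5 and 3 with median-ratio scaling). Over all genes tested, 27.5% were lower in the knockout with C. albicans and 26.1% with PBS. Of these 16 genes, 10 were lower in the knockout with C. albicans and 8 with PBS, with none higher in either case. After scaling, 7 were lower and 1 higher with C. albicans, and 6 were lower with PBS. With 1 library left out, 4 to 7 fell in wild type (4 without wild-type C. albicans replicate 3, 5 without wild-type PBS replicate 2 or 3 or wild-type C. albicans replicate 1 or 2) and 2 to 4 rose. None of them fell in the knockout without knockout PBS replicate 1 or 3 or knockout C. albicans replicate 1 or 3. With C. albicans 7 to 11 were lower in the knockout, and 7 of them without wild-type C. albicans replicate 1. One call lost there was that of Map3k3 (log2 -0.09, adjusted p = 0.0809). Map3k8, the kinase that activates the ERK pathway downstream of Toll-like receptors, rose by log2 0.85 in the knockout and 1.28 in wild type, with an interaction of -0.43 (SE 0.10, adjusted p = 0.0118). Map3k1 went the other way, with an interaction of 0.44 (SE 0.08, adjusted p = 0.00248), a fall in wild type (-0.49) and a change in the knockout that did not pass (-0.05).

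Of 10 kinases activated by MAP kinases, 1 rose with C. albicans in the knockout, and 2 rose and 3 fell in wild type (4 and 3 with median-ratio scaling). The gene that rose in the knockout was Mapkapk2, and the call was lost with no variance trend (adjusted p = 0.0513), without knockout PBS replicate 2 or 3 (adjusted p = 0.0584 and 0.0768) and without knockout C. albicans replicate 2 or 3 (adjusted p = 0.0565 and 0.0789). In the interaction 2 were positive and 2 negative. Mapkapk2, the kinase through which p38 stabilises cytokine transcripts, had an interaction of -0.35 (SE 0.06, adjusted p = 0.00238), and Mknk2, a kinase of the translation factor eIF4E, one of 0.51 (SE 0.08, adjusted p = 8.80e-04). Over all genes tested, 27.5% were lower and 12.4% higher in the knockout with C. albicans, and 26.1% were lower with PBS. Of the 10 kinases, 5 were lower and 1 higher in the knockout with C. albicans, and 3 were lower with PBS. With 1 library left out, 3 to 5 were lower with C. albicans (3 without wild-type C. albicans replicate 2 or 3 or knockout C. albicans replicate 1 or 3) and 2 to 5 with PBS (5 without wild-type C. albicans replicate 1). Of 14 other negative regulators of RAS and MAP kinases 11 were tested, and 1 rose in the knockout, and 3 rose and 4 fell in wild type. In the knockout 6 were lower and 1 higher with C. albicans, and 5 were lower with PBS, against 5 and 3, and 3 and 1, with median-ratio scaling. The 5 lower with PBS became 2 without knockout PBS replicate 1 and 3 without wild-type PBS replicate 1 or 2. Nf1, which encodes neurofibromin, the partner of Spred1, was lower in the knockout with C. albicans (log2 -0.60) and with PBS (log2 -0.37), and the PBS call was lost once the length and GC trend was removed (-0.04, adjusted p = 0.688).

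Early transcripts known to be induced by ERK rose with C. albicans in both genotypes, with 1 exception in the knockout. Of 15 such genes 13 were tested, and 12 rose in the knockout and 13 in wild type, against 3.94% and 16.1% of all genes tested. Their median log2 changes were 0.83 and 1.44, against -0.04 and -0.07 over all genes. The exception was Fosb (0.53 in the knockout, adjusted p = 0.144), named after its values were seen. Over all genes tested, 27.5% were lower in the knockout with C. albicans, and 6.14% were higher and 26.1% lower with PBS. Of the 13 genes, 11 were lower in the knockout with C. albicans and none higher, while with PBS 5 were higher and 3 lower. In the interaction 5 of the 13 were negative and none positive, against 6.33% and 7.52% of all genes tested. Their median was -0.61, against 0.02 over all genes. With 1 library left out, 9 to 11 were lower in the knockout with C. albicans and 3 with PBS. Those higher with PBS numbered 1 to 6, with 1 left without wild-type PBS replicate 1 or 2 or knockout PBS replicate 3, 2 without knockout PBS replicate 1, and 3 without wild-type PBS replicate 3 or any 1 knockout C. albicans library. Negative interactions numbered 4 to 8, with 8 without wild-type C. albicans replicate 1 or knockout PBS replicate 2. Ier3, a regulator of apoptosis, averaged 81.6 TPM in the knockout with C. albicans and 40.9 TPM with PBS, against 139.7 and 35.1 TPM in wild type, with an interaction of -0.99 (SE 0.09, adjusted p = 2.61e-05). Fos, a subunit of the AP-1 transcription factor, averaged 95.8 TPM in the knockout with C. albicans and 51.7 TPM with PBS, against 134 and 37.9 TPM in wild type, with an interaction of -0.92 (SE 0.09, adjusted p = 4.84e-05). Junb, another AP-1 subunit, had an interaction of -0.58 (SE 0.08, adjusted p = 4.86e-04) and Egr2, a zinc finger transcription factor, one of -0.65 (adjusted p = 0.0162). The difference of Egr2 with C. albicans, log2 -0.34 knockout over wild type, was lost without wild-type C. albicans replicate 1 (log2 -0.18, adjusted p = 0.0622) and without any 1 knockout C. albicans library (adjusted p = 0.0590 to 0.0684). With PBS Fos, like Dusp1, was higher in the knockout (0.44, adjusted p = 3.2e-04).

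**Figure D4:**
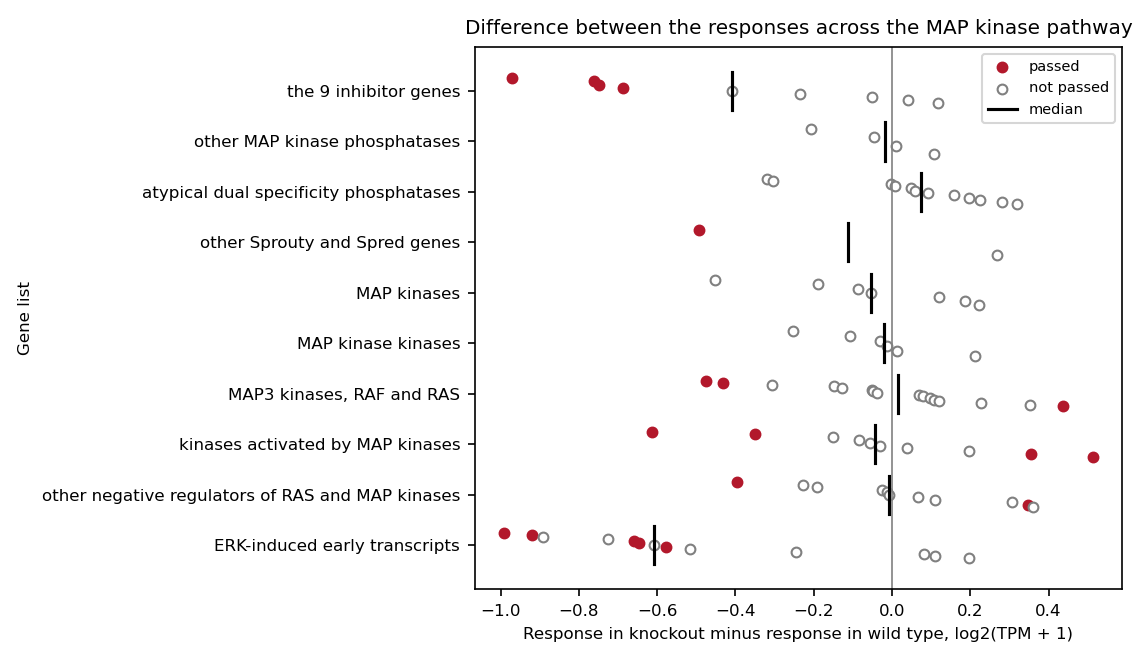
Response to C. albicans in the knockout minus the wild-type response, on the log2(TPM + 1) scale, for each tested gene of 10 lists of the MAP kinase pathway. Each point is a gene, filled where it passed, and the black line is the median of the list. The medians of the 9 inhibitor genes (-0.41) and of the ERK-induced early transcripts (-0.61) lie below 0, and those of the other lists lie between -0.11 and 0.07.

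Across the 12 libraries the genes most like each member, by Pearson correlation of log2(TPM + 1), are given as a description, since the libraries share the 4 groups. Dusp1 ran closest to Junb and Ets2 (r = 0.997 each), both encoding transcription factors, and to the cytokine gene Gdf15 (0.996). Dusp4 ran closest to Spata13 and Ralgds (0.996 each) and Slfn2 (0.995), and Spred1 to Acod1 (0.997), the itaconate-producing enzyme, Igsf6 (0.995) and Rnf19b (0.994). Dusp5 ran closest to Il10 (0.989), an anti-inflammatory cytokine, Ets2 (0.988) and Plaur (0.987). Dusp2 had Nr4a1 (0.985), Zfp36 (0.981) and Pnrc1 (0.978) as its nearest genes, and Dusp6 had Nfkbid (0.920) and Cxcl1 (0.917) among its nearest. For Dusp16 they were Tbk1 (0.971), Ifngr1 (0.964) and St13 (0.962), for Spry2 Cog5 (0.959), Mcur1 (0.958) and Stt3a (0.957), and for Dusp3 Gpr89 and Gramd1b (0.910 each) and Sipa1l1 (0.909). Among the members themselves r was 0.987 for Dusp1 with Dusp5 and 0.983 for Dusp4 with Spred1, the 2 highest values among all pairs. Dusp3 had r between -0.25 and 0.47 with the other 8.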

How the data were processed

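Polyadenylated RNA of 12 libraries in 4 groups of 3 was measured, grouped by their genotype and treatment labels. The tools named are DESeq2 1.34.0, STAR 2.7.5a, cutadapt 2.6 and CASAVA 1.8, with the build mm10, per the submitters' processing notes. The sources used here name no counter, strand setting or annotation. As deposited, the values are TPM for 25230 genes, scaled by the authors to gene length and library. The table also holds the authors' mean normalised signal, log2 fold change with its standard error, Wald score and p-value, named per the file headers. Their comparison was identified from the values (wild type, C. albicans over PBS), with a median absolute difference of 0.000968 from the log2 ratio of reads over 9555 genes. Whole reads were recovered from TPM and that signal (100% of 73163 values under 200 reads within 0.02 of a whole number), giving the depths in the report.

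Limma 3.58.1 in R 4.3.3 was run on log2(TPM + 1) over all 12 libraries, with 1 mean per group, the variance trend on, robust estimation off, no replicate block and 8 residual degrees of freedom. A gene was tested where 3 or more libraries reached 1 TPM, which kept 11283. Adjusted p-values are two-sided and follow Benjamini-Hochberg within a comparison, with a threshold of 0.05. The fit was also run on simulated reads, drawn from wild-type PBS means with the same spread for every gene. Those reads held no library that stood apart, and no result here rests on that run. Members and lists were chosen with earlier results of these data known. Text names all members, up to 4 tested genes of each other list with the smallest p in the interaction, the 3 genes most correlated with each member (1 of them is not reported here), and Piezo1. Alternatives were a pseudocount of 0.1, no filter on low values, the trend off, median-ratio or upper-quartile scaling, a replicate block, only the libraries compared, removal of the trend with length and GC content (both known for 94.8% of tested genes), leaving out each library, and, chosen after seeing the data, voom on the recovered reads. Gene positions come from a RefSeq annotation of GRCm38, which mm10 names. Strands and exon overlaps come from a GENCODE annotation of that build.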

Additional observations from a re-analysis of the deposited data

Results flagged for a closer look

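A group of 4 genes is given here because the response of each to C. albicans differed between the genotypes by the test of the difference itself, the interaction of genotype and treatment in limma over all genes. Knockout response minus wild-type response was -0.97 for Dusp4, -0.76 for Dusp1, -0.75 for Dusp5 and -0.69 for Spred1 on the log2(TPM + 1) scale. All 4 genes rose in both genotypes. The knockout PBS libraries enter each of these values, and their titles name DMSO where the treatment label says PBS.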

How the results depend on the processing

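Of the member values under alternatives, 880 kept their direction and their side of the threshold, 17 lost a call, 9 gained one and 30 changed sign. Sign changes were in values that had not passed: none of them was a called value. For Dusp3 the knockout response was 0.0355 with median-ratio scaling, 0.0212 after removal of the length and GC trend, 0.0363 with voom and 0.0131 with upper-quartile scaling. Its wild-type response was 0.0327, 0.00708 and 0.0309 under the first 3. Its difference of knockout over wild type with C. albicans was 0.0249, 0.0842, 0.0270 and 0.0445 under the 4. With PBS it was 0.0221, 0.0701 and 0.0216 under the first 3. The knockout difference of Dusp6 with PBS was 0.0156 with median-ratio scaling and 0.0298 after removal of the length and GC trend. Leaving out 1 library at a time gave, for Dusp3, -0.0347 to 0.0106 in the knockout response, -0.142 to 0.00433 in the wild-type response, -0.0880 to 0.0582 in the knockout difference with C. albicans and -0.0115 to 0.135 in the interaction. It gave -0.0759 to 0.0706 for the wild-type response of Spry2, -0.237 to 0.202 for the knockout difference of Dusp6 with PBS and -0.303 to 0.136 for the interaction of Dusp6. The causes were not tested.

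Counts of members higher in the knockout with PBS, 1 as reported, were 3 with median-ratio scaling, 2 with upper-quartile scaling and 2 with voom, and the count lower, 4 as reported, was 2 after removal of the length and GC trend. Without 1 library, members that fell in the wild-type response numbered 0 to 1, those higher in the knockout with PBS 0 to 1 and those with a positive interaction 0 to 1. The first and last of these ranges reach 1 without wild-type C. albicans replicate 1, the member being Dusp3.

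The replicate numbers were not taken to pair libraries, since the labels do not say that a number marks a shared animal or day. Same-numbered libraries of different groups had correlations of their deviations between -0.0874 and 0.0871, with 0 of 18 over 0.1. With the number as a replicate block, 6 members rose in the knockout and 7 in wild type, 6 were lower in the knockout with C. albicans, 4 were lower and 1 higher with PBS, and 4 had a negative interaction, the same counts as without it. Among other named genes the block ended the interaction calls of Map3k6 and Errfi1 and the PBS differences of Dusp7, Spred2 and Egr2 (adjusted p = 0.0649, 0.0501, 0.0565, 0.0520 and 0.0551). The Map3k6 interaction was also lost in 9 of the 12 fits that left out 1 library, among them that without wild-type C. albicans replicate 1 (-0.439, adjusted p = 0.0636). Over all genes, the count that fell in the knockout response ranged over alternatives between 98 and 824 (354 as reported), and that lower in the knockout with PBS between 1069 and 3360 (2948). Depth limits Dusp6, Dusp2, Spry2 and Dusp16, which rest on 27 to 396 reads per library.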
